A study of Oryctolagus cuniculus with 27 samples.

Results

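The ascending aorta of rabbits on a cholesterol and vitamin D2 diet was compared with that of rabbits on normal chow. All libraries labelled ascending aorta were taken, 2 from the diet group and 3 from the control group, which is 5 of the 27 libraries in the series. The other 22 came from the aortic valve (16 libraries) and the left ventricular myocardium (6 libraries). All animals were wild-type male New Zealand rabbits. The diet animals received 1% cholesterol with 3500 IU of ergocalciferol (vitamin D2) per kg and day, and the controls normal chow. The labels give no age and no duration of the diet for the aortas. One diet aorta (replicate 1, animal E25) came from an animal whose valve was sampled in the 2-week group, and the other (replicate 2, animal E43) from an animal with no valve library here. The study's design text gives the aorta as a reference tissue, taken just below the vessels of the head and neck, for deciding which transcripts in valve samples came from heart muscle. The question here is what the diet changed in that reference tissue.

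The wall of the ascending aorta is built mainly of smooth muscle cells between sheets of elastic fibres, with an endothelium on the inside and an adventitia of fibroblasts, nerves and fat on the outside. In rabbits, dietary cholesterol is known for loading macrophages of the arterial intima with lipid, and vitamin D in excess for calcification of the media. The atria and the ventricles of the heart use different contractile isoforms, among them the alpha myosin heavy chain MYH6 and the atrial light chains MYL4 and MYL7 in atrial muscle, and the beta myosin heavy chain MYH7 with the light chains MYL2 and MYL3 in ventricular and slow muscle.

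Total counts ran from 11.51 to 16.11 M per library. Levels of a gene are given below as CPM, that is counts scaled to a common library total. Differences are given as log2 fold changes, diet over control, ± a standard error (SE). This SE is the absolute log2 fold change divided by the square root of the F statistic of edgeR's quasi-likelihood test. The smooth muscle identity of the samples was clear in each library: the summed level of 7 smooth muscle markers was 53900, 65190 and 53790 CPM in the controls and 63420 and 58530 CPM in the diet aortas. Control replicate 1 stood apart in markers of fat, endothelium and nerve. Its adipocyte markers (3 of 4 listed, CIDEC at 0 in every library) summed to 115.7 CPM against 16.0 to 37.5 CPM in the other 4 libraries, its endothelial markers (5 of 5) to 251.2 CPM against 73.4 to 80.8 CPM, and its Schwann cell markers (3 of 4) to 88.5 CPM against 19.9 to 28.2 CPM. The 2 diet libraries were more alike than any other of the 34 pairs of replicates in the series. The biological coefficient of variation between them was 0.098, against 0.196 for the next closest pair, and their log levels correlated at r = 0.984 across genes, which are not independent replicates. Their counts still differed beyond sampling noise, with 22% of genes at p below 0.05 in a chi-square comparison. That comparison covers counting noise only, so it cannot tell 2 animals from 2 libraries of 1 animal. The 2 libraries were counted as 2 samples because the labels name 2 animals, and the calls with both taken as 1 sample are given beside the results.

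Of 14435 genes tested with edgeR's quasi-likelihood F test, 19 rose (0.132%) and 4 fell (0.0277%) at a Benjamini-Hochberg adjusted p below 0.05. At an unadjusted p below 0.05 there were 974 higher (6.75%) and 794 lower genes (5.5%), and the median log2 fold change of all genes tested was -0.025. Both diet libraries lay above all 3 controls for 13.3% of the genes tested and below all 3 for 20.4%. The calls depended on single libraries. With the 2 diet libraries taken as 1 sample, or without control replicate 1, diet replicate 1 or diet replicate 2, the genes kept among the 23 were MYH6 and MYL4, and 3, 3, 2 and 3 genes passed in all. Without control replicate 2, 284 genes passed, among them all 23, and without control replicate 3, 40 genes passed, of which 18 were among the 23. All 23 kept their direction in each of these fits. All adjusted p-values below are from edgeR over all genes tested, unless another tool is named.

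**Figure D1:**
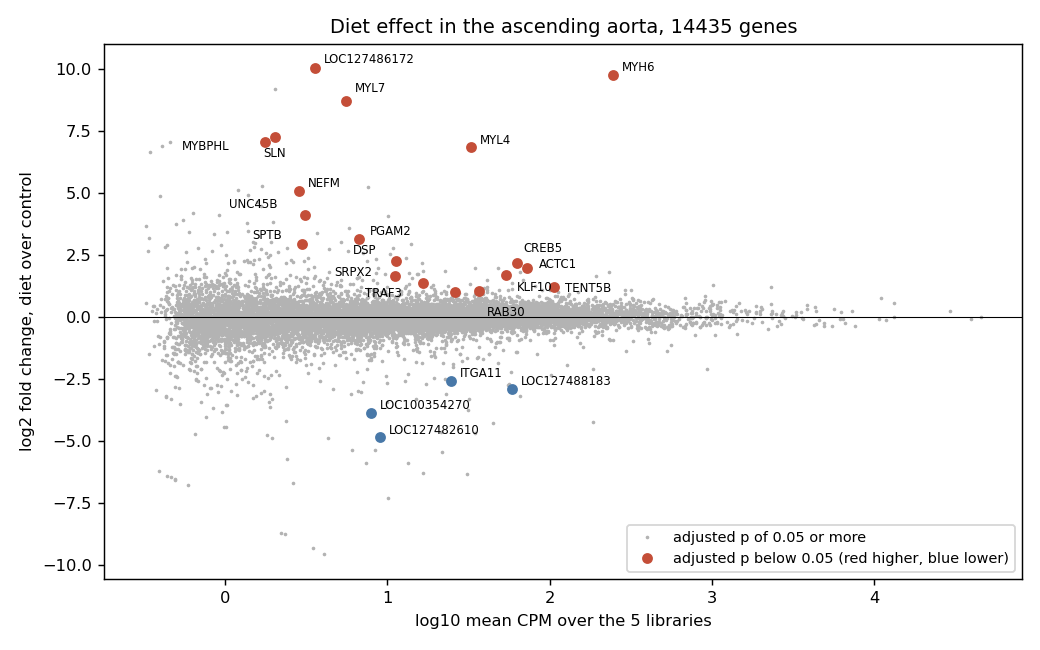
Each point is 1 of the 14435 genes tested, with its mean level over the 5 aorta libraries (log10 CPM) on the horizontal axis and the log2 fold change, diet over control, on the vertical axis. The 19 genes that rose are red and the 4 that fell blue, most of them with their names. MYH6 combines a high level with a large difference.

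Heart muscle genes of the atrial type had the largest fitted fold changes among the called genes with a symbol. MYH6, the alpha myosin heavy chain of atrial muscle, stood at 0.521, 0.931 and 0.648 CPM in the 3 controls and at 577 and 647 CPM in the 2 diet aortas. Both diet libraries lay far above every control. The log2 fold change was 9.77 ± 0.22 (adjusted p = 0.000105). MYL4, the atrial essential light chain, was at 0.695, 0.993 and 0.405 CPM in controls and at 84.5 and 76.8 CPM on the diet (6.85 ± 0.24, adjusted p = 0.000731). The groups did not overlap for either gene, which the rule for naming genes required.

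MYL7, the atrial regulatory light chain, and SLN, sarcolipin, an inhibitor of the sarcoplasmic calcium pump found mainly in atrial muscle, were nearly silent in the controls. MYL7 had 1 count in the 3 control libraries together and 433 in the diet libraries, a ratio of 551.9 after scaling by library totals (exact 95% interval 98.5 to 21850, counting error only). It stood at 14.1 and 13.5 CPM on the diet (adjusted p = 0.0111). SLN had 1 count against 157, a ratio of 200.1 (35.4 to 7954), with 4.92 and 5.09 CPM on the diet (adjusted p = 0.0344). MYBPHL, a myosin-binding protein of the atria, named after its values were seen, had 1 count against 136, a ratio of 173.4 (30.6 to 6897, adjusted p = 0.0403). MYL7 and SLN each had 0 counts in 2 of 3 controls and close levels in both diet libraries.

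The ventricular and slow isoforms lay in the opposite direction, and none of them passed the test. MYH7, the beta myosin heavy chain, was at 51.7, 175 and 112 CPM in controls and at 40.2 and 37.9 CPM on the diet (-1.48 ± 0.48, adjusted p = 0.317). MYL2, the ventricular regulatory light chain, was at 24.0, 44.5 and 59.6 CPM and at 14.4 and 11.7 CPM (-1.67 ± 0.40, adjusted p = 0.209). NPPB, the B-type natriuretic peptide, was at 8.25, 9.13 and 14.3 CPM and at 1.22 and 1.27 CPM (-3.04 ± 0.36, adjusted p = 0.0560). For all 3 the diet libraries lay below every control. Of MYH6 and MYH7 counts together, MYH6 made up 0.998%, 0.529% and 0.574% in the controls and 93.5% and 94.5% on the diet. These 2 myosins are close paralogs, and RSEM divides reads that fit both, so a part of either count may belong to the other.

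Of ACTC1, CASQ2, TTN, TNNT2 and TCAP, which both chambers use, ACTC1 passed. ACTC1, cardiac alpha actin, rose from 31, 28.8 and 41.3 CPM to 128 and 131 CPM (1.99 ± 0.19, adjusted p = 0.0344). CASQ2, cardiac calsequestrin, stood at 4.26, 9.06 and 7.38 CPM and at 29.3 and 32.2 CPM without passing (2.20 ± 0.29, adjusted p = 0.0739). Titin, TTN, stood at 1.49 ± 0.30 (adjusted p = 0.159). TNNT2, cardiac troponin T, which the table lists under a gene number, stood at 0.42 ± 0.15 (adjusted p = 0.369) with 220, 285 and 209 CPM in controls and 304 and 308 CPM on the diet, so that it was abundant in both groups. TCAP, titin-cap, lay below all controls, at 813, 770 and 641 CPM in controls and at 552 and 532 CPM on the diet (-0.40 ± 0.14, adjusted p = 0.359). UNC45B, a chaperone that folds striated muscle myosin, named after its values were seen, rose by 4.11 ± 0.34 (adjusted p = 0.0249) from 0.408 ± 0.149 CPM (SD, n = 3) to 7.15 CPM on the diet. PGAM2, the muscle phosphoglycerate mutase, rose from 1.56, 1.86 and 1.54 CPM to 12.7 and 15.9 CPM (3.15 ± 0.21, adjusted p = 0.0152).

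Regulators of heart muscle followed the atrial genes in direction and missed the threshold. NKX2-5, a cardiac homeobox factor, was at a mean of 0.276 CPM in controls and 3.06 CPM on the diet (3.48 ± 0.44, adjusted p = 0.0654), and TBX5, a T-box factor of the atria and left ventricle, at 0.168 and 3.92 CPM (4.49 ± 0.49, adjusted p = 0.0510). NPPA, the atrial natriuretic peptide, was at 0.0869, 0.993 and 1.22 CPM in controls and at 8.38 and 7.77 CPM on the diet (3.40 ± 0.63, adjusted p = 0.141). Of the 24 tested members of the cardiomyocyte list, 5 rose (MYH6, MYL4, MYL7, SLN and ACTC1), against 0.132% of all genes tested, and 0 fell. The list's median was 1.63, against -0.025 over all genes. Both diet libraries lay above all controls for 17 members (70.8%, against 13.3% of all genes) and below all controls for the other 7 (29.2%, against 20.4%). DESeq2's Wald test called 15 members higher and 4 lower, where it called 1.56% of all genes higher and 0.98% lower.

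**Figure D2:**
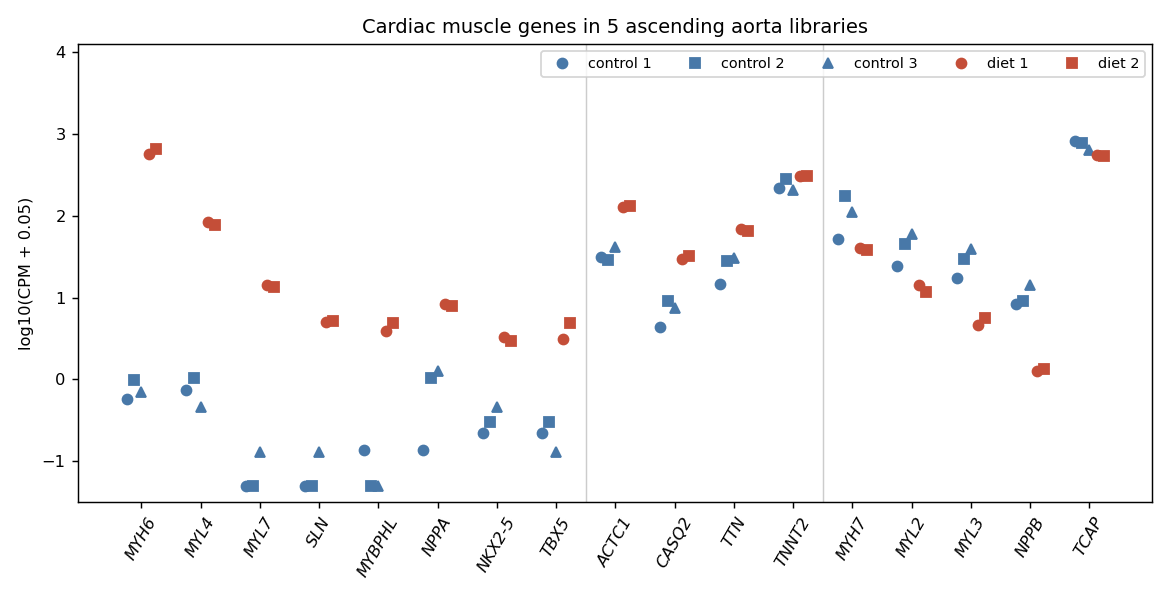
Level of 17 cardiac muscle genes in each aorta library, as log10(CPM + 0.05), with controls in blue and diet in red. The 8 genes on the left are atrial isoforms and regulators, the 4 in the middle are used in both chambers and the 5 on the right lay lower on the diet, MYH7 and MYL2 among them. In each gene the 2 diet libraries nearly coincide.

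The summed level of 6 cardiomyocyte markers was 301.0, 518.3 and 389.9 CPM in the controls and 970.9 and 1043 CPM on the diet. Of these sums, MYH6 alone made up 0.521, 0.931 and 0.648 CPM in the controls and 577 and 647 CPM on the diet. The higher sum on the diet therefore rests on MYH6. Heart muscle transcripts were therefore present in every aorta library, and their composition differed between the groups. In bulk tissue, more cells of a type and more RNA per cell cannot be told apart, and where along the aorta each piece ended was not given in the sources used here. How far pieces of atrial tissue contribute to these changes was not tested. For scale, control valves held 43.5 to 856 CPM of MYH6 and 3373 to 17210 CPM of MYH7, and control left ventricle 228 to 3075 CPM and 37110 to 62540 CPM. MYL7 was at 0.576 to 5.44 CPM in control valves and at 0.215 to 1.48 CPM in control ventricle, below its level in both diet aortas. The valve library of animal E25 held 291 CPM of MYH6, 52.0 CPM of MYL4 and 10.8 CPM of MYL7, beside 577, 84.5 and 14.1 CPM in its aorta.

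MYL4 and SLN rose on the diet in the valve as well. MYL4 was at 2.05 to 8 CPM in control valves and at 0.326 to 399, 106 to 3322 and 128 to 2314 CPM in valves after 2, 4 and 7 weeks of diet. In the joint fit its mean valve effect was 6.32 ± 1.46 (adjusted p = 0.0451), and its difference, aorta minus valve, was 0.58 ± 2.11 (adjusted p = 0.948). SLN rose in the valve by 6.65 ± 1.48 (adjusted p = 0.0405), with a difference of 0.71 ± 3.84 (adjusted p = 0.968). MYL7 (4.91 ± 1.32, adjusted p = 0.0651) and MYH6 (2.48 ± 1.05, adjusted p = 0.243) did not pass in the valve, and neither differed between the tissues past the threshold (MYL7 by 3.91 ± 4.06, adjusted p = 0.783, MYH6 by 7.34 ± 1.93, adjusted p = 0.382). The diet ventricles came from animals of the 7-week valve group. In the left ventricle SLN rose by 5.08 ± 0.92 (adjusted p = 0.0449) and MYL4 stood at 3.73 ± 0.91 (adjusted p = 0.103). Their differences, aorta minus ventricle, were 2.17 ± 1.71 (adjusted p = 0.884) and 3.14 ± 1.35 (adjusted p = 0.574), and did not pass.

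NEFM, the medium neurofilament of axons, was the called member of the Schwann cell and neural list (1 of 14 tested, list median -0.38, and 0.018 without control replicate 1). It rose from 0.174, 0.248 and 0.162 CPM to 5.88 and 7.83 CPM (5.10 ± 0.35, adjusted p = 0.0152). It did not pass without control replicate 1 or without either diet library. The myelin gene PMP22 of the same list was at 98.5, 114 and 101 CPM in controls and at 102 and 101 CPM on the diet (0.00 ± 0.11, adjusted p = 0.995), and its groups overlapped.

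The remaining called genes with a symbol belonged to none of the gene lists. CREB5, a transcription factor of the CREB and ATF family, was at 23, 25.9 and 31 CPM in controls and at 117 and 116 CPM on the diet (2.17 ± 0.16, adjusted p = 0.0173). KLF10, a zinc finger factor induced by TGF-beta, was at 29.3, 26.4 and 31.9 CPM and at 94.6 and 88.3 CPM (1.69 ± 0.13, adjusted p = 0.0221). Both factors were tightly grouped on each side, and the groups were far apart. The summed cardiomyocyte markers were higher in the same 2 libraries, at 970.9 and 1043 CPM, of which MYH6 alone made up 577 and 647 CPM. Of the 6 markers, 4 lay above all controls and 2 (MYH7 and MYL2) below. The part of heart muscle in the differences of CREB5 and KLF10 was not tested. TRAF3, an adaptor of TNF receptor signalling, rose from 10.7, 10.7 and 9.56 CPM to 26.4 and 25.3 CPM (1.37 ± 0.12, adjusted p = 0.0344).

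DSP, desmoplakin, the plaque protein of desmosomes and of the junctions between heart muscle cells, rose from 3.74, 5.84 and 4.38 CPM to 21.5 and 21.4 CPM (2.25 ± 0.21, adjusted p = 0.0344). SRPX2, a secreted sushi-repeat protein, rose from 5.73, 6.95 and 5.75 CPM to 20.4 and 17.1 CPM (1.65 ± 0.17, adjusted p = 0.0407). TENT5B, a poly(A) polymerase, rose from 77.2, 72.7 and 61.5 CPM to 162 and 156 CPM (1.22 ± 0.12, adjusted p = 0.0386). In all 3 the groups were apart, which the rule for naming genes required. RAB30, a small GTPase of the Golgi, rose from 26.9, 27.7 and 24.6 CPM to 54.4 and 50.9 CPM (1.05 ± 0.10, adjusted p = 0.0347). SPTB, the erythroid and muscle beta spectrin, named after its values were seen, rose by 2.95 ± 0.31 (adjusted p = 0.0459). LOC127486172 had 0 counts in the controls and 282 in the diet libraries, at least 119.8-fold higher against a floor of 3 counts over the control group (adjusted p = 0.0344).

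ITGA11, the alpha 11 integrin chain, a collagen receptor of fibroblasts, was the gene with a symbol that fell. It stood at 42.5, 39.7 and 29.1 CPM in controls and at 6.46 and 5.54 CPM on the diet (-2.57 ± 0.20, adjusted p = 0.0228). The lowest control stood far above the higher diet library. The other 3 genes that fell carry gene numbers only, LOC127488183 (-2.89 ± 0.27), LOC127482610 (-4.85 ± 0.46) and LOC100354270 (-3.86 ± 0.40), with adjusted p of 0.0344 to 0.0432. The largest of them in level, LOC127488183, was at 81.2, 120.6 and 67.1 CPM in controls and at 11.7 and 11.5 CPM on the diet.

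Further genes that lay lower were taken by smallest p among those with a symbol, a mean of at least 5 CPM and groups apart. They had an adjusted p of 0.0560 to 0.0870 and did not pass. HP, haptoglobin, which binds free haemoglobin, was at 213, 142 and 99.4 CPM in controls and at 29.7 and 28.5 CPM on the diet (-2.33 ± 0.32, adjusted p = 0.0870). CROT, a peroxisomal carnitine acyltransferase, was at 14.6, 11.9 and 12.3 CPM and at 3.01 and 4.27 CPM (-1.78 ± 0.23, adjusted p = 0.0724). EPHX2, soluble epoxide hydrolase, was at 41.4, 38.7 and 44.5 CPM and at 21.9 and 22 CPM (-0.87 ± 0.12, adjusted p = 0.0870). F3, tissue factor, the starter of coagulation, was at 30.2, 37 and 33.6 CPM and at 17.6 and 15.9 CPM (-0.96 ± 0.14, adjusted p = 0.0870). The groups did not overlap for any of these 4, as the choice required. The others were MICU3, MPZL1, NPPB, UNK, PDILT, TWF1 and GSTM2, with fold changes between -3.04 (NPPB) and -0.88 (TWF1).

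**Figure D3:**
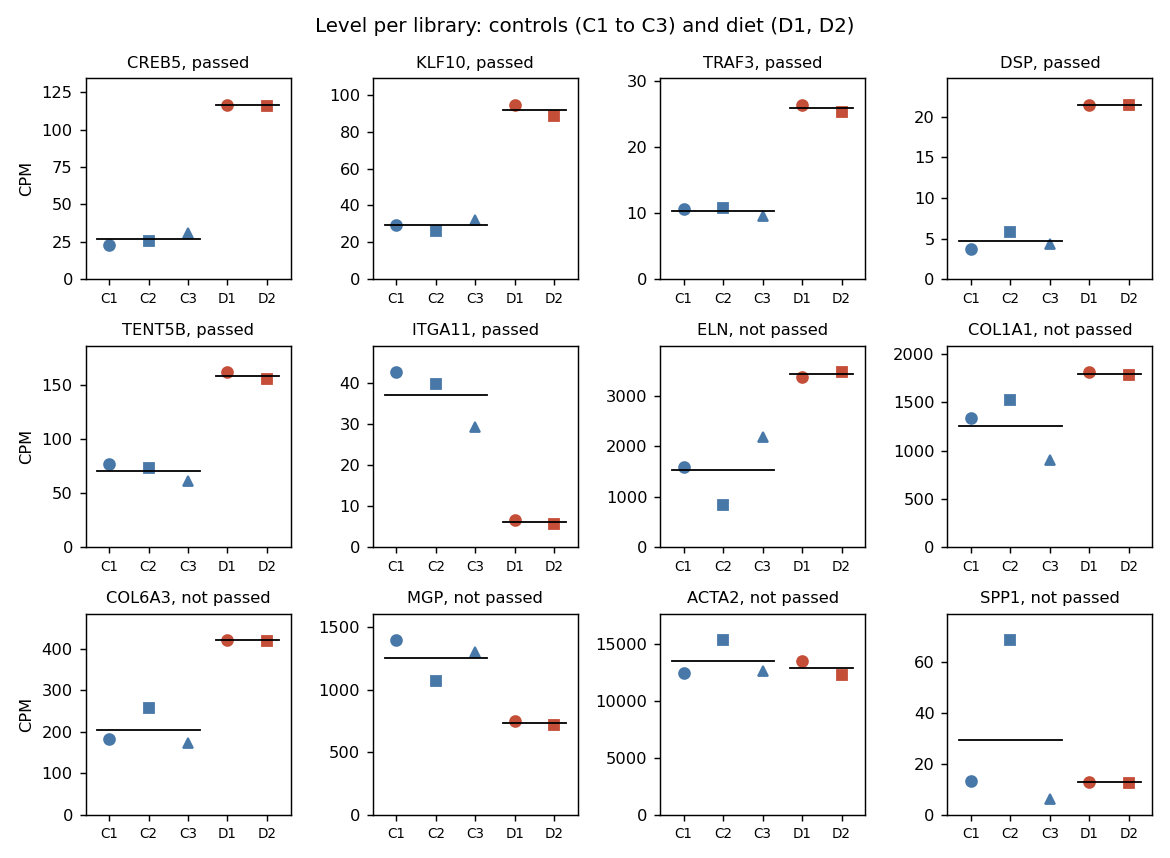
CPM of 12 genes in the 3 control (C1 to C3, blue) and 2 diet libraries (D1, D2, red), each panel from 0, with black lines for group means and the outcome of the test in each title. CREB5, KLF10, TRAF3, DSP, TENT5B and ITGA11 passed, while the matrix genes ELN, COL1A1 and COL6A3 lay above all controls without passing.

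No gene of the smooth muscle contractile apparatus passed the test. Of 24 tested members 0 passed with edgeR, and the median was 0.243. At an unadjusted p below 0.05 in edgeR, 8 were higher (33.3%, against 6.75% of all genes) and 0 lower (against 5.5%). Both diet libraries lay above all controls for 13 members (54.2%, against 13.3% of all genes) and below for 1 (4.17%, against 20.4%). MYH11, smooth muscle myosin heavy chain, was at 26398, 33783 and 23345 CPM in controls and at 32762 and 30125 CPM on the diet (0.23 ± 0.24, adjusted p = 0.710). ACTA2, smooth muscle alpha actin, was at 12415, 15305 and 12611 CPM and at 13451 and 12292 CPM (-0.01 ± 0.19, adjusted p = 0.982). The 2 groups overlapped for both genes. TPM2, beta tropomyosin, had the lowest value of the list (-0.30 ± 0.19) and CASQ2, which is also in the cardiomyocyte list, the highest. DESeq2 called 3 members higher, where it called 1.56% of all genes higher. Without control replicate 2, edgeR called 4 members higher, where it called 1.33% of all genes higher and 0.699% lower.

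Among matrix genes, elastin had the largest difference of the elastic fibre list. ELN, the core protein of elastic fibres, was at 1588, 840 and 2177 CPM in controls and at 3379 and 3461 CPM on the diet. Both diet libraries exceeded the highest control, and the controls themselves were widely spread. The difference, 1.19 ± 0.39, did not pass (adjusted p = 0.322). Of 23 elastic fibre genes tested 0 passed, the median was 0.105, and the median was -0.012 without control replicate 3. FBLN2, fibulin-2, was at 88.5, 74.4 and 82.6 CPM in controls and at 41 and 45.3 CPM on the diet (-0.88 ± 0.13, adjusted p = 0.0878), the lowest of the list.

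Of 27 collagen and collagen-processing genes 0 passed, with a median of 0.240 and 20 of 27 fold changes above 0, against 46.7% of all genes. COL1A1, a chain of fibrillar type I collagen, was at 1335, 1524 and 901 CPM in controls and at 1811 and 1787 CPM on the diet (0.58 ± 0.22, adjusted p = 0.379). COL6A3, a chain of microfibrillar type VI collagen named after its values were seen, was at 183, 257 and 172 CPM and at 421 and 419 CPM (1.09 ± 0.18, adjusted p = 0.105). COL3A1, type III collagen, overlapped between the groups (0.33 ± 0.22, adjusted p = 0.564). Without control replicate 2 the median was 0.422 and 3 members passed, all higher, where 1.33% of all genes passed higher. The lowest value was that of COL2A1, cartilage collagen, at 0.695, 14.1 and 15 CPM in controls and at 0.0639 and 0.382 CPM on the diet (-5.38 ± 1.51, adjusted p = 0.280).

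Genes of TGF-beta and BMP signalling held members far apart in both directions. Of 27 tested 0 passed, with a median of 0.027. TGFB2, a TGF-beta ligand, was at 14.9, 10.9 and 11.4 CPM in controls and at 26.5 and 28.6 CPM on the diet (1.20 ± 0.17, adjusted p = 0.0878). CCN2, a secreted matricellular target of TGF-beta, had the lowest value, at 641, 1085 and 379 CPM in controls and at 267 and 254 CPM (-1.37 ± 0.41, adjusted p = 0.295). Both genes lay outside the range of the controls, in opposite directions.

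Of genes of bone and cartilage formation, 0 of 20 tested passed, with a median of -0.455. The median was -0.034 without control replicate 1, -0.069 without control replicate 2 and -0.152 with a filter at a mean of 1 CPM. Without control replicate 2, 1 member passed, higher, where 1.33% of all genes passed higher. DESeq2 called 1 member lower, where it called 0.98% of all genes lower. With the replicate number as a block in edgeR, 1 member passed, lower, where 46 of 14435 genes passed lower. RUNX2, the master factor of osteoblasts, was at 1.82, 0.497 and 1.3 CPM in controls and at 0.0639 and 0.573 CPM on the diet (-1.82 ± 0.93, adjusted p = 0.487). SOX9, the master factor of cartilage, was at 14.1, 31.5 and 10.1 CPM and at 19.3 and 20.6 CPM (0.16 ± 0.45, adjusted p = 0.901). BMP2 (-0.04 ± 0.26) and ALPL, tissue non-specific alkaline phosphatase (-0.53 ± 0.40), did not pass either, and ALPL was at no more than 1.62 CPM in any library. SPP1, osteopontin, was at 13.3, 68.7 and 6.32 CPM in controls and at 13.1 and 12.7 CPM on the diet (-1.13 ± 0.94, adjusted p = 0.633), with control replicate 2 above all others.

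MGP, matrix Gla protein, the main inhibitor of mineral in the arterial wall, was at 1396, 1070 and 1298 CPM in controls and at 751 and 719 CPM on the diet. Both diet libraries lay below every control, by -0.72 ± 0.17, and the difference did not pass (adjusted p = 0.20). Of 12 tested genes of mineralisation control and phosphate handling 0 passed, with a median of 0.013. ENPP1, which makes the mineral inhibitor pyrophosphate and was named after its values were seen, lay above the controls (0.89 ± 0.32, adjusted p = 0.371). Of the vitamin D response list, 6 genes were tested and 0 passed. The vitamin D receptor VDR was at 0.782, 0.559 and 0 CPM in controls and at 0.320 and 0.382 CPM on the diet, and CYP24A1, the vitamin D 24-hydroxylase matched by gene number, was listed at 0 in all 5 libraries. SLC8A1, the sodium-calcium exchanger, lay higher in both diet libraries, at 29.9 and 26 CPM against 13.4, 17.1 and 11.3 CPM (1.05 ± 0.18, adjusted p = 0.118). It is also a heart muscle gene, and the part of heart muscle in its difference was not tested.

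**Figure D4:**
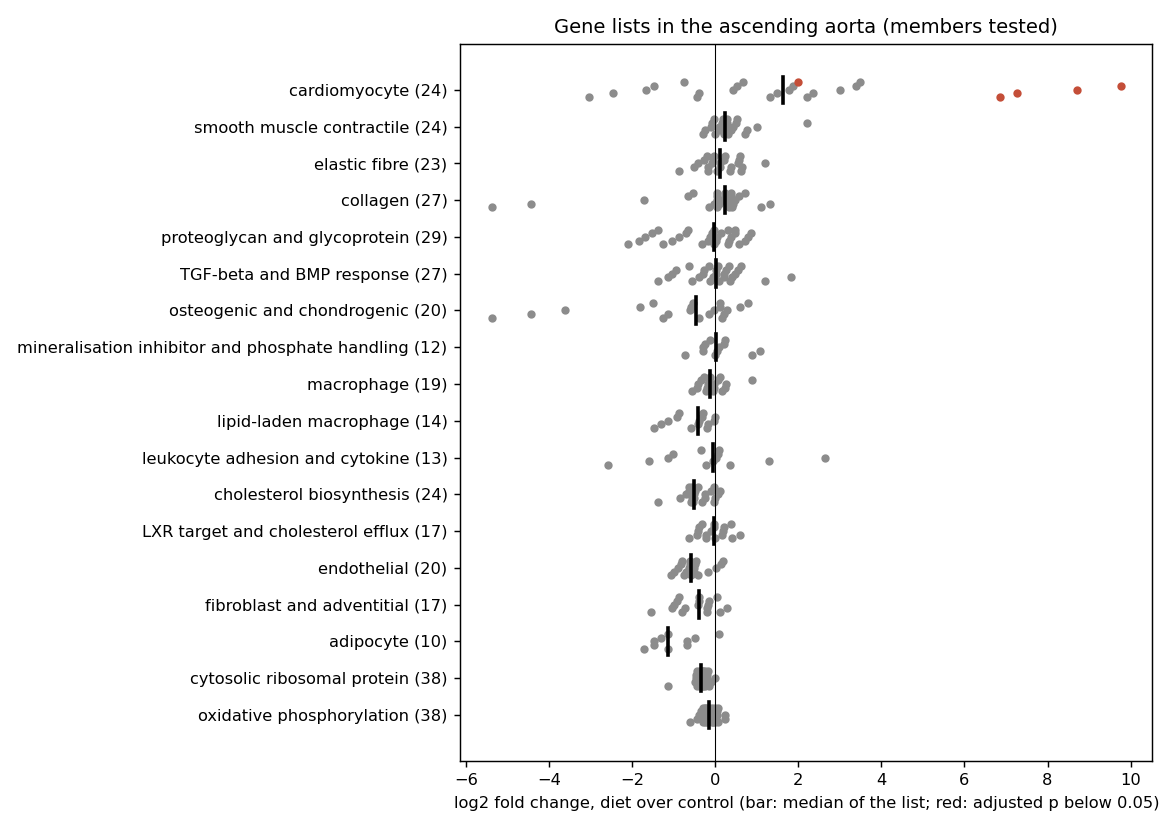
Log2 fold change, diet over control, of each tested member of 18 gene lists, with the number tested in parentheses, a black bar at the list's median and members past the threshold in red. Called members appear in the cardiomyocyte list alone among those shown, and the other medians lie between -1.13 (adipocyte) and 0.243 (smooth muscle contractile).

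Macrophage genes were low in all 5 aortas. CD68, a lysosomal marker of macrophages, was at 7.56, 7.64 and 5.92 CPM in controls and at 5.12 and 6.81 CPM on the diet (-0.19 ± 0.22, adjusted p = 0.748). CD74, the invariant chain of MHC class II, was at 50.7, 68.5 and 69.3 CPM and at 40.03 and 43.2 CPM (-0.55 ± 0.17, adjusted p = 0.310), and had the lowest value of the list. Of 19 macrophage genes tested 0 passed, with a median of -0.127 that ran from -0.323 to 0.055 when 1 library was left out. The summed level of 5 macrophage markers was 48.0, 37.1 and 31 CPM in controls and 33.7 and 35.3 CPM on the diet. Of 14 genes of lipid-laden macrophages 0 passed, with a median of -0.406. FABP4, a fatty acid carrier of macrophages and fat cells, was at 135, 18.1 and 18.1 CPM in controls and at 20.3 and 18.9 CPM on the diet, highest in the library with the most adipocyte markers.

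Adhesion and cytokine genes did not pass either (0 of 13 tested, median -0.060). VCAM1, which binds monocytes to activated endothelium, was at 16.5, 9.93 and 6.16 CPM in controls and at 11.6 and 10.4 CPM on the diet (0.08 ± 0.38, adjusted p = 0.944). CCL2, a monocyte chemokine, had the highest value, at 0.348, 0.373 and 0.0810 CPM and at 1.34 and 2.04 CPM (2.65 ± 0.59, adjusted p = 0.187). IL1B reached at most 0.384 CPM and MMP9 at most 0.521 CPM in any library, and neither was tested. T and B lymphocyte genes were mostly below the count filter, with 4 of 16 listed genes tested.

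Genes of cholesterol synthesis, which cells shut down when they hold enough sterol, mostly had fold changes below 0. These were 21 of 24 tested (87.5%, against 53.3% of all genes). The median of the list was -0.514, and 0 of the 24 passed. FDFT1, squalene synthase, was at 68.5, 101 and 67.8 CPM in controls and at 53.1 and 50.1 CPM on the diet (-0.56 ± 0.19, adjusted p = 0.346). SREBF2, the sterol-sensing transcription factor of the pathway, was at 94.2, 168 and 125 CPM and at 127 and 124 CPM (0.00 ± 0.23, adjusted p = 0.997). In both genes control replicate 2 stood above the other 4 libraries. Without it the median of the list was -0.075. Of 17 tested LXR targets and efflux genes 0 passed (median -0.042). ABCA1, which exports cholesterol, was at 14.3, 10.9 and 8.51 CPM in controls and at 17.1 and 15.5 CPM on the diet (0.58 ± 0.23, adjusted p = 0.383), and ABCG1 was at no more than 1.97 CPM (-0.03 ± 0.35, adjusted p = 0.977).

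Endothelial, fibroblast and fat genes had medians below 0, and edgeR called 0 members. DESeq2 called 5 fibroblast and 2 adipocyte members lower, and 0 endothelial members, where it called 0.98% of all genes lower. The endothelial list (20 tested) had a median of -0.591, and of -0.135 without control replicate 1. VWF, von Willebrand factor, was at 127, 33.6 and 25 CPM in controls and at 28 and 31.7 CPM on the diet (-0.99 ± 0.70, adjusted p = 0.580). NOS3, the endothelial nitric oxide synthase, had counts in control replicate 1 alone (6.78 CPM) and was not tested. The adipocyte list (10 tested) had a median of -1.13, and of -0.225 without that library. The median of the fibroblast and adventitial list (17 tested) was -0.400 and ran from -0.465 to -0.271 when 1 library was left out. DPT, dermatopontin, and DCN, decorin, both named after their values were seen, lay below all controls at -0.92 ± 0.15 (adjusted p = 0.106) and -1.04 ± 0.30 (adjusted p = 0.281), and the summed fibroblast markers were at 1071 to 1427 CPM in controls and at 706.3 and 653.9 CPM on the diet.

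All 38 tested cytosolic ribosomal protein genes had fold changes below 0 (median -0.333, 0 called), against 53.3% of all genes. RPS2 was at 1774, 1292 and 2146 CPM in controls and at 1522 and 1516 CPM on the diet (-0.15 ± 0.24, adjusted p = 0.821). Control replicate 2 was as low as the diet libraries or lower. Without it the median was -0.519 with 5 members past the threshold, all lower, where 0.699% of all genes passed lower. Of 38 tested nuclear genes of oxidative phosphorylation 31 had fold changes below 0 (median -0.150, 0 called). Of the other lists, those of proteoglycans, proteases, lymphocytes, granulocytes, interferon, complement, fatty acid synthesis and oxidation, NOTCH and WNT, red cells, mesothelium, cell cycle, stress responses, immediate early genes, hypoxia, lysosome, clock, glucocorticoid response, regional identity, vasoactive genes and mechanosensing held 0 members called by edgeR. DESeq2 called 5 mechanosensing genes higher and 1 lower, 3 vasoactive genes higher, 3 proteoglycan genes lower, 2 clock genes higher, 2 complement and 2 NRF2 target genes lower, 2 immediate early genes in each direction, and at most 1 gene in either direction in each of the others. Over all genes DESeq2 called 1.56% higher and 0.98% lower. Of the 19 tested mechanosensing genes 8 (42.1%) were higher at an unadjusted p below 0.05 in edgeR, against 6.75% of all genes, with a median of 0.25.

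The diet effect in the aorta was set against that in the other tissues by a test of the difference itself, with the valve effect taken as the mean over 2, 4 and 7 weeks. Of 16866 genes tested, 3 differed upward in the aorta (0.0178%) and 5 downward (0.0296%). ITGA11 fell in the aorta (-2.53 ± 0.32 in this fit) and stood at -0.13 ± 0.18 in the valve, and the difference was -2.40 ± 0.36 (adjusted p = 0.0239). CREB5 was 3.01 ± 0.46 higher in its aorta effect, at 2.22 ± 0.40 against -0.79 ± 0.24 in the valve (adjusted p = 0.0239). TGFB2, DUSP16, a phosphatase of stress kinases, and CROT were the other genes with a symbol. Against the 2-week valve alone, the difference of 1 gene, ITGA11, passed (0.00593%, -2.48 ± 0.37, adjusted p = 0.0435). Of the valve controls, C38, C42 and C43 are titled 7 weeks and C45 is titled 2 weeks. The 2-week valve effect is therefore not matched for time to its controls. Without either diet aorta, 0 genes passed in both comparisons with the valve, and 835 to 881 genes were at an unadjusted p below 0.05 in edgeR. One animal gave both a diet aorta and a valve library, and the fits did not model this.

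In the joint fit with the valve, the median fold change of 21 macrophage genes was 1.45 in the valve and -0.008 in the aorta. Of the 21, 11 passed in the valve, where 0.943% of all genes rose and 0.32% fell. CD68 stood at 1.44 ± 0.31 in the valve (adjusted p = 0.0395), and its difference, aorta minus valve, was -1.59 ± 0.57 (adjusted p = 0.468). No difference between the tissues passed for any of the 21, and 12 of them were at an unadjusted p below 0.05 in edgeR, against 9.18% of all genes. Against the 2-week valve, where the median was -0.051, CD68 differed by -0.08 ± 0.60 (adjusted p = 1.00).

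Against the left ventricle, 25 genes differed upward in the aorta (0.159% of 15755 tested) and 9 downward (0.0571%). Those with upward differences included MYH6, TBX5, UNC45B, FSD2 and RNF207, all expressed in heart muscle. MYH6 stood at 9.79 ± 1.09 in the aorta and at -3.07 ± 0.76 in the ventricle (difference 12.86 ± 1.32, adjusted p = 0.00227). GPNMB, a glycoprotein of lipid-laden macrophages, stood at -0.55 ± 0.44 in the aorta and rose by 5.07 ± 0.55 in the ventricle (difference -5.62 ± 0.73, adjusted p = 0.0109). COL3A1, type III collagen, stood at 0.35 ± 0.29 in the aorta and fell by 1.93 ± 0.27 in the ventricle (difference 2.28 ± 0.39, adjusted p = 0.0486). It was named after its values were seen. Without diet replicate 1 or 2, 12 and 10 genes passed in this comparison.

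**Figure D5:**
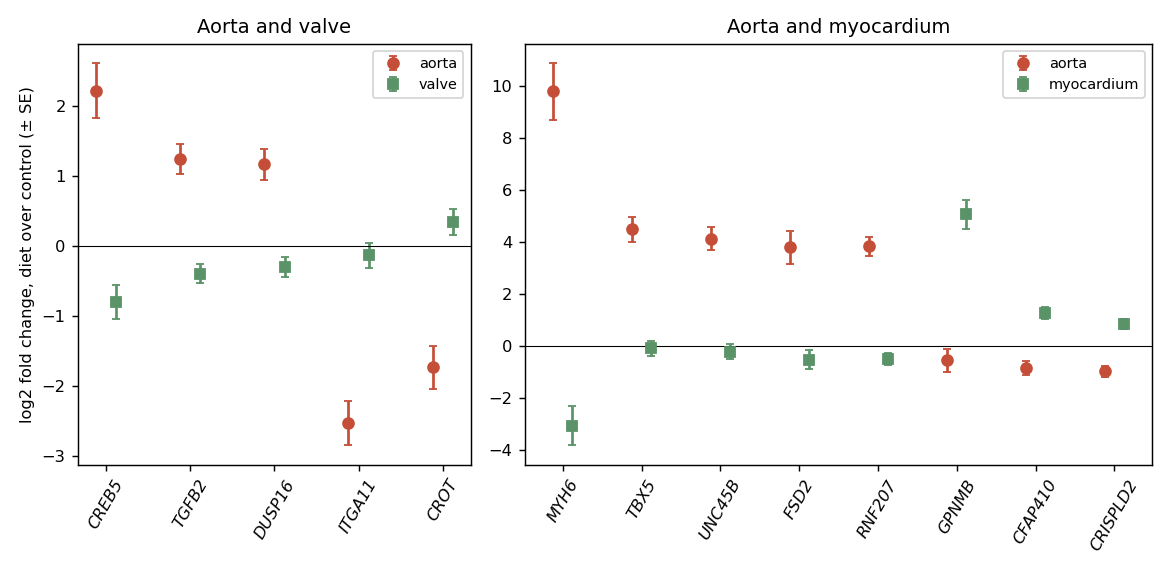
Log2 fold change, diet over control, in the aorta (red) and in the valve or myocardium (green), with SE bars, for genes whose effect differed between the tissues. CREB5, TGFB2 and DUSP16 lie above 0 in the aorta and below it in the valve, and MYH6 lies near 10 in the aorta and near -3 in the myocardium.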

How the data were processed

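RNA of 27 rabbit libraries was extracted with Trizol and sequenced from directional libraries as 100 bp single-end reads, 21.2 M on average, per the labels' protocols. Per the submitters' processing notes, RSEM 1.3.3, the aligner STAR 2.7.8a and the trimmer Trim Galore 0.6.6 were among the tools, with FastQC 0.11.9 and edgeR 3.42.4. No genome build or annotation, and no use of strand in counting, is given in the sources used here, so overlapping and antisense genes cannot be told apart. The authors deposited expected counts, reads assigned to genes by RSEM and not normalized, for 31346 genes in each tissue table. Of the values in the first diet aorta 9.47% were not whole, and all were rounded. A further valve table, from which the authors had taken genes out, was not used.

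The aorta comparison was fitted on its 5 libraries (3 residual degrees of freedom) with edgeR 4.0.16 in R 4.3.3: filterByExpr (minimum count 10, minimum total 15), TMM scaling, a quasi-likelihood F test, two-sided, and Benjamini-Hochberg adjustment. Differences between tissues were contrasts in joint fits. With 3 against 2 libraries an exact permutation test cannot go below p = 0.2 for a single gene. Counts are reads without molecular identifiers, so the 95% intervals and floors (3 counts) cover counting error only. The dissection is described for the valve cusp only, per the labels' protocols.

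Members and lists (43 lists, 1054 entries, of which 942 matched by symbol, 34 by gene number through the RefSeq table of mOryCun1.1 and 78 not at all) were chosen with earlier results of these data known. Genes were named by rule: up to 12 per direction past the threshold with a symbol, at least 5 CPM and groups apart, topped up by smallest p; up to 4 called and the 2 highest members per list, with its extremes; 21 fixed genes; and 5 per direction between tissues. Others are marked as named after their values were seen. Alternatives covered scaling, filters, DESeq2 1.42.0, limma 3.58.1 (voom), all libraries in 1 fit, a replicate block and leaving out libraries. Treating the diet libraries as 1 sample and a robust spread were chosen after seeing the data. A few genes are not reported here.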

Additional observations from a re-analysis of the deposited data

Results flagged for a closer look

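The test of the difference in diet effect between tissues picked out 8 genes for aorta against valve, 1 for aorta against the 2-week valve and 34 for aorta against myocardium. Against the valve, the differences (aorta minus valve, log2) were 3.01 for CREB5, 1.64 for TGFB2, 1.47 for DUSP16, -2.40 for ITGA11 and -2.08 for CROT. Against the 2-week valve the difference for ITGA11 was -2.48. Against myocardium the differences were 12.86 for MYH6, 4.58 for TBX5, 4.35 for UNC45B, 4.33 for FSD2, 4.32 for RNF207, -5.62 for GPNMB, -2.10 for CFAP410 and -1.81 for CRISPLD2. The aorta groups, of 3 and 2 libraries, are too small for a test of single outlying samples.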

How the results depend on the processing

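With 23 genes called (19 higher, 4 lower), DESeq2's size factors in edgeR, a filter at a mean of 1 CPM and no filter gave the same counts, library totals alone gave 18 and a robust spread 25. The DESeq2 Wald test called 394 (242 higher, 152 lower) and limma-voom 16 (14 and 2). With all 27 libraries in 1 fit 4 passed (2 and 2), of which CREB5, ITGA11 and LOC100354270 were among the 23 and MYH6 had an adjusted p of 0.0965 in edgeR. The replicate numbers of controls and diet animals share only a number (r of deviations -0.011 and -0.079), and with the replicate block 96 genes passed (50 and 46), among them 21 of the 23. With the diet libraries as 1 sample 3 passed (2 and 1). Leaving out 1 library gave 2 to 284 genes (2 to 186 higher, 0 to 98 lower); when a diet library is left out, the lone one is assumed to vary like the controls. The cause of the spread of these counts was not tested beyond the smaller number of libraries. Of the 23 genes, all kept their direction in all 15 alternatives, and MYH6 and MYL4 passed in 14 of them. For 128 named genes, 0 of 1917 values under an alternative reversed, 124 no longer passed and 47 newly passed. A change of sign counted as a reversal only where the gene passed in the reported fit or in the alternative. Changes of sign in genes that passed in neither were not counted.

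The count for aorta against valve, 8, was 3 with all 27 libraries in 1 fit and 0 to 4 without 1 aorta library. Against the 2-week valve, 1, it was 0 with DESeq2's size factors (1359 genes at an unadjusted p below 0.05 in edgeR), 4 with all libraries and 0 to 2 without 1 library. Against myocardium, 34, it was 6 and 10 to 28. At 11.51 to 16.11 M counts, genes such as IL1B, VDR and NOS3 were too low to test.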
